A study of Mus musculus with 48 samples.

Results

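The dentate gyrus (DG) and the cornu ammonis (CA) of the mouse hippocampus were compared within the same animals. The members are 24 of the 48 areas of illumination (AOIs) of the series, 12 from DG and 12 from CA, taken by their region label and paired by mouse group and replicate number, which gave 12 mice with 1 DG and 1 CA AOI each. The difference DG minus CA was tested for all 15782 genes of the normalized tables. The CA label stands for the first field of the cornu ammonis (CA1), and the 24 AOIs of the frontal cortex (FCT) and the cortex (CT) were used only to describe levels.

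The series is a digital spatial profiling study of brain sections from male C57BL/6 mice that were 10 weeks old at launch. Mice spent 35 days on the space station (FLT) or in flight hardware on the ground (GC), and they received saline (SAL) or BuOE, a manganese porphyrin that mimics superoxide dismutase. BuOE was injected under the skin at 1 mg/kg in 0.2 mL, first 7 days before launch and then every week. Each of the 4 combinations, written GC-SAL, GC-BuOE, FLT-BuOE and FLT-SAL, held 3 mice. Ground mice started 3 days after the flight mice, which were in the laboratory within 20 h of landing. A single slide carried the 3 sections of a group, so the effects of slide and group cannot be told apart, whereas the DG and CA AOIs of a mouse lay on the same section of the same slide. Regions were drawn on stains for nuclei, for GFAP (astrocytes) and for Iba1 (microglia), and each AOI took in the whole drawn region without separation of cell types.

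The DG and the CA1 field are successive stations of the hippocampal circuit. Granule cells of the DG receive the input from the entorhinal cortex and send mossy fibers to CA3, whose pyramidal cells in turn project to the pyramidal cells of CA1, the main output neurons of the hippocampus. Granule cells are small, densely packed and sparsely active, and the homeobox factor Prox1 is needed to keep their identity, while Wfs1, a membrane protein of the endoplasmic reticulum, is a standard marker of CA1 pyramidal cells.

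The AOIs of the 2 regions differed in make-up before any gene was compared. The number of nuclei per 1000 µm2 had a lowest, median and highest value of 3.85, 4.53 and 6.34 in DG and of 1.66, 2.01 and 2.64 in CA, so the regions did not overlap, and DG was 2.23-fold denser (12 of 12 mice, two-sided exact sign-flip permutation p = 0.000488, the smallest that 12 pairs can give). Deduplicated counts per AOI ran from 416744 to 1372780 in DG and from 322629 to 948561 in CA, with DG higher in 10 of 12 mice (exact sign-flip permutation p = 0.00928). The negative-control probe, which has no target and measures background, lay at 9.24 to 13.5 Q3-normalized counts in DG and at 16.1 to 20.9 in CA. The upper quartile of every AOI was set to the same value of 40.02, so CA values stood on a higher background. A gene was therefore marked as at background in a region when its median ratio to the negative probe was below 1.5. By this mark 9280 genes were above background in both regions, 6365 in DG only, 9 in CA only and 128 in neither. In bulk AOIs, fewer cells of a type and less RNA per cell cannot be told apart, and the part of nuclear density and depth in the differences given here was not tested. Levels are compared between AOIs for 1 gene and not between genes.

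A gene was called at an adjusted p (limma, Benjamini-Hochberg) below 0.05 with a mean difference beyond 1.5-fold on the log2(Q3-normalized count + 1) scale, the scale of every difference and fold below. By this rule 380 genes were higher in DG (2.41% of the genes tested) and 267 were higher in CA (1.69%). The median difference was 0.76 among the DG genes, -0.75 among the CA genes and -0.07 over all genes, and 70 DG genes and 52 CA genes passed a difference of 1. Of the 380 DG genes, 324 were higher in DG in 12 of 12 mice, as were 591 genes over the whole table (3.74%). Of the 267 CA genes, 181 were higher in CA in 12 of 12 mice, against 305 over the whole table (1.93%). The 12 DG and 12 CA values did not overlap for 206 of the DG genes and 85 of the CA genes, beside 230 (1.46%) and 86 (0.545%) over the whole table. Background set the regions apart among the called genes too. All 380 DG genes were above background in DG, 72 of them in DG only, while 11 of the CA genes were at background in both regions and 17 were above it in DG only. Scaling to the negative probe moved the median of all genes to 0.64, and the split of DG against CA calls became 9448 to 24. Subtracting the negative probe moved the median to 0.71 and gave 7027 to 165. Under scaling to the negative probe 122 of the 267 CA genes changed sign, and under subtraction 2 did. When the scaled values were centred on the median gene, the split was 484 to 190, DESeq2 gave 434 to 171, and no called gene changed sign in these or in edgeR.

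**Figure D1:**
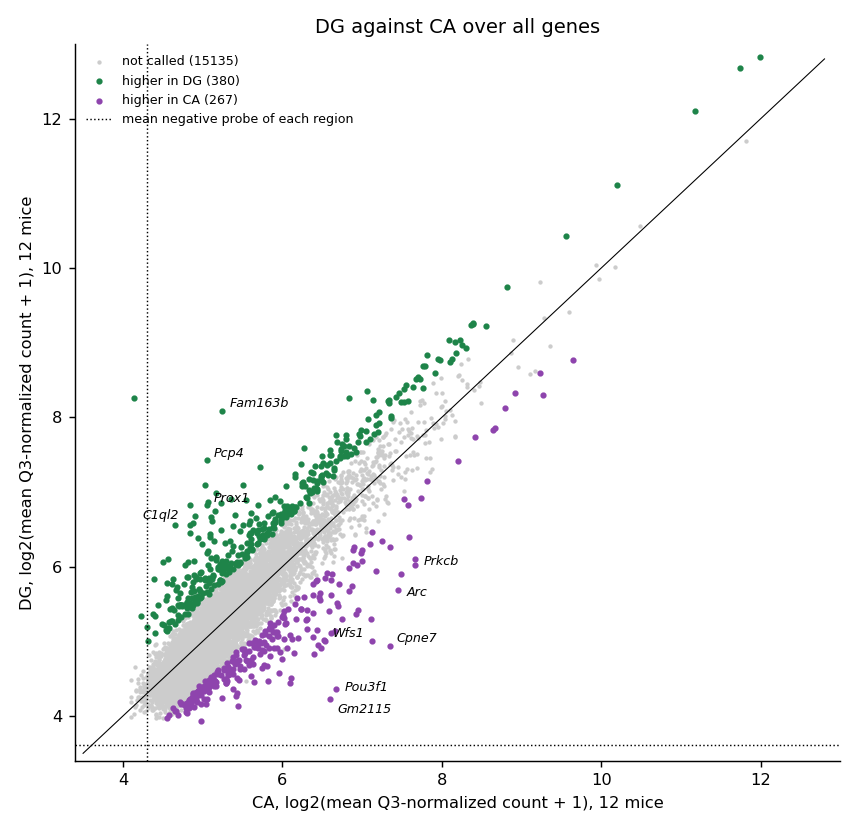
Mean Q3-normalized count of every gene in DG (vertical axis) against CA (horizontal axis), each the mean of 12 mice on a log2(mean + 1) scale, with the 380 genes called higher in DG in green, the 267 called higher in CA in purple and the others in grey. Dotted lines mark the mean negative probe of each region and the solid line marks equal levels. Fam163b and Pcp4 stand well above the line and Gm2115, Pou3f1 and Cpne7 well below it, and the isolated green point at the left edge is Pik3r4, which rests on 1 AOI.

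Both region labels matched their markers in every mouse. Prox1 (chr1:190118035-190170714, minus strand, GRCm38) had a lowest, median and highest value of 88.4, 111 and 149 Q3-normalized counts in DG and of 20.0, 35.0 and 41.5 in CA. The regions did not overlap, and Prox1 was 3.47-fold higher in DG. The difference was 1.79 (limma SE 0.09, SD of the 12 paired differences 0.37, 12 of 12 mice higher in DG, range 1.33 to 2.44, two-sided exact sign-flip permutation p = 0.000488). Wfs1 (chr5:36966104-36989205, minus strand, GRCm38) showed the reverse order. Its values were 21.1, 31.3 and 40.0 in DG and 59.3, 82.3 and 133 in CA, again without overlap. Wfs1 was 2.85-fold higher in CA. The difference was -1.51 (limma SE 0.10, SD of the 12 paired differences 0.53, 12 of 12 mice higher in CA, range -2.36 to -0.78, exact sign-flip permutation p = 0.000488). Prox1 in CA still read 1.79 times the negative probe and Wfs1 in DG 2.74 times, so neither marker was at background in the region where it was low. Scaling to the negative probe moved the difference of Prox1 to 2.51 and that of Wfs1 to -0.79, and subtracting the probe moved them to 3.02 and -1.81.

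The sequences just before the transcription start are shown for 3 of the genes that set the regions apart, Prox1 and C1ql2 from the DG side and Gpr161 from the CA side. Each is the window of 250 bases before the start, from RefSeq (GRCm38.p6), 5′ to 3′ on the strand of the gene, and capitals mark a CAGATG E-box or a GGGCGG GC box on either strand.
Prox1, chr1:190170828-190171077, minus strand: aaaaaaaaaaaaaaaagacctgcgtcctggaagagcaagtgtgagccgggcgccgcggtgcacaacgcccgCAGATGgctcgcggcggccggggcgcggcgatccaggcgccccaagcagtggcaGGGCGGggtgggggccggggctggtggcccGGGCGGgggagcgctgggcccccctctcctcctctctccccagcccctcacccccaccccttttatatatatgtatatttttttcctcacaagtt
C1ql2, chr1:120340332-120340581, plus strand: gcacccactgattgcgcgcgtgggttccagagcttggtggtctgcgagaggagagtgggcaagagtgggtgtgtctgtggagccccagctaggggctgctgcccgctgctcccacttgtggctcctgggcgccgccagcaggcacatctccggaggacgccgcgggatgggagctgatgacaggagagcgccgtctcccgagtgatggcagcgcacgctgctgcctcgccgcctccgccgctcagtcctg
Gpr161, chr1:165295516-165295765, plus strand: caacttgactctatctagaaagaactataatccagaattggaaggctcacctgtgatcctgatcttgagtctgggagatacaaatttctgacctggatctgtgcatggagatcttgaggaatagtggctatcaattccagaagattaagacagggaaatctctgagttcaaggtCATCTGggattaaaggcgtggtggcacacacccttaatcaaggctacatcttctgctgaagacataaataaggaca

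Such a window was found for 12484 of the 15782 genes, among them 281 of the DG genes and 195 of the CA genes. The CAGATG E-box, a letter string that factors of the NeuroD family can bind, was in 11.31% of all windows, in 9.964% of the DG windows and in 10.26% of the CA windows. The CAGCTG E-box was in 11.72%, 8.541% and 11.28%, the cAMP response element TGACGTCA in 2.355%, 1.779% and 2.564%, and the AP-1 string TGAGTCA in 3.42%, 3.203% and 2.051%. The GC box GGGCGG was in 50.18%, 55.52% and 57.44%. The 5 strings were searched on both strands, none of them contains another, and a match describes these letters only. Prox1 from the DG side and Gpr161 from the CA side each held 1 CAGATG E-box, and C1ql2 held none of the marked strings.

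The 10 genes furthest on the DG side were picked among called genes that were higher in DG in 12 of 12 mice and above background there. Fam163b led, with 221, 261 and 379 Q3-normalized counts (lowest, median and highest) in DG and 16.9, 35.3 and 54.6 in CA, a 7.45-fold difference (log2 2.90, SE 0.08, limma adjusted p = 8.56e-43). Pcp4, a small peptide that binds calmodulin, followed with 150.4, 166 and 213 in DG and 14.7, 34.0 and 44.7 in CA (5.39-fold, log2 2.43, SE 0.09). For both genes the lowest DG value lay far above the highest CA value. Pitpnm2, a phosphatidylinositol transfer protein, had 110.1, 138 and 164 in DG and 17.3, 30.2 and 47.0 in CA (log2 2.12, SE 0.09). Stxbp6, which binds syntaxin, had 84.2, 112 and 136 in DG and 13.3, 26.9 and 38.6 in CA (log2 2.00, SE 0.10). In CA Stxbp6 read 1.45 times the negative probe and so was at background there.

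Signalling, calcium and wiring genes made up the rest of the leading DG genes. Tiam1, an activator of the GTPase Rac, had 96.7, 127 and 158 in DG and 18.5, 34.3 and 52.0 in CA (log2 1.84, SE 0.09). Ncald, a neuronal calcium sensor, had 86.9, 117 and 149 in DG and 20.0, 33.2 and 44.3 in CA (log2 1.80, SE 0.09). Sema5a, a semaphorin that guides axons and dendrites, had 76.3, 95.3 and 126 in DG and 20.0, 30.2 and 36.8 in CA (log2 1.78, SE 0.10). C1ql2, a secreted protein of mossy fiber synapses, had 69.0, 92.0 and 124 in DG and 17.2, 27.1 and 43.1 in CA, where it was at background (log2 1.75, SE 0.10). These genes and Prox1 are among the 10 with the largest DG excess of the called genes with the same sign in 12 mice, and the regions overlapped for none of the 10. Their p-values and SEs rest on a spread pooled over genes, and leaving that pooling out kept 377 of the 380 DG calls. The adjusted p of Fam163b was then 8.39e-06 (t-test on each gene's own spread).

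**Figure D2:**
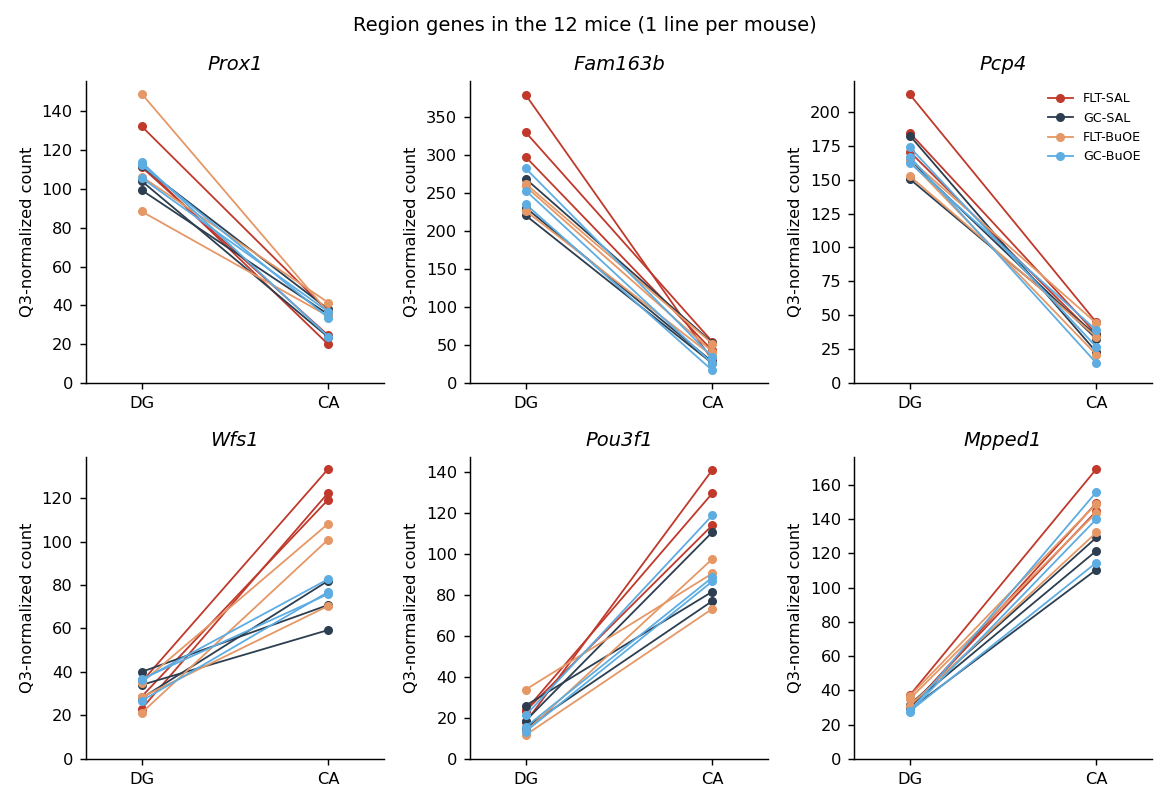
Q3-normalized counts (vertical axes, from 0) of Prox1, Fam163b and Pcp4, which are higher in DG, and of Wfs1, Pou3f1 and Mpped1, which are higher in CA, with 1 line per mouse joining its DG and CA AOIs and colors for the 4 groups. All 12 lines of a gene slope the same way, which was a condition for the pick of the leading genes. For Fam163b the lowest DG value of 221 lies above the highest CA value of 54.6.

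The genes furthest on the CA side, picked in the same way for CA, had a like size of difference. Gm2115, a predicted gene, had 13.3, 17.1 and 25.0 in DG and 63.5, 94.1 and 122 in CA, 5.16-fold higher in CA (log2 -2.37, SE 0.10, limma adjusted p = 5.1e-31). Pou3f1, a POU-domain transcription factor, had 11.7, 18.2 and 33.8 in DG and 73.1, 93.9 and 141 in CA (log2 -2.34, SE 0.11). Cpne7, a copine that binds membranes when calcium rises, had 16.7, 31.8 and 40.0 in DG and 56.5, 145 and 322 in CA (log2 -2.27, SE 0.10), the widest range in CA among these genes. Mpped1, a metallophosphoesterase, had 27.5, 30.6 and 37.2 in DG and 111, 142 and 169 in CA (log2 -2.11, SE 0.08). Dkk3, a secreted glycoprotein of the dickkopf family, had 28.3, 38.9 and 52.3 in DG and 91.9, 142 and 178 in CA (log2 -1.80, SE 0.08). The CA values of these 5 genes lay above all of their DG values.

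A kinase and an activity gene stood among the others. Prkcb, the beta form of protein kinase C, had 48.9, 63.6 and 73.8 in DG and 165, 202 and 242 in CA (log2 -1.64, SE 0.07). Arc, an immediate early gene whose messenger RNA travels into dendrites, had 33.4, 52.4 and 71.0 in DG and 109, 159 and 273 in CA (log2 -1.72, SE 0.08). Gpr161, a receptor of the primary cilium that restrains hedgehog signaling, had 14.5, 20.1 and 27.8 in DG and 53.9, 66.4 and 81.4 in CA (log2 -1.66, SE 0.11). Ociad2, a mitochondrial protein, had 17.7, 27.8 and 42.2 in DG and 72.3, 88.6 and 108 in CA (3.03-fold higher in CA, SE 0.10 on the log2 scale).

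The difference between the regions was next read in each group of 3 mice. Each group gave calls of its own, with 399 DG and 263 CA genes in GC-SAL (2.53% and 1.67%), 481 and 318 in GC-BuOE (3.05% and 2.01%), 400 and 236 in FLT-SAL (2.53% and 1.5%), and 410 and 298 in FLT-BuOE (2.6% and 1.89%). Of the 380 DG genes, 216 had an adjusted p below 0.05 with the same sign in all 4 groups (1.37% of the genes tested), 80 in 3 groups, 59 in 2, 23 in 1 and 2 in none. Of the 267 CA genes, 92 held in all 4 groups (0.583%), 42 in 3, 50 in 2, 62 in 1 and 21 in none. Without the pooling over genes, but with each gene's spread still shared by the 4 groups, the counts in all 4 groups were 118 and 48. The mice of the groups are different animals, and across genes the DG minus CA differences of any pair of groups had a Pearson r of 0.451 to 0.570 over all 15782 genes and of 0.577 to 0.673 over the 9280 genes above background in both regions, given as a description since genes are not independent.

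The 20 leading genes and Wfs1 held in all 4 groups. Since the 20 were picked on the mean and sign of these same mice, this is a description. Prox1 differed by 1.69 in GC-SAL, 1.80 in GC-BuOE, 2.13 in FLT-SAL and 1.56 in FLT-BuOE. For Fam163b the values were 2.78, 3.32, 2.97 and 2.52 in the same order. Wfs1 spread more, at -1.04 in GC-SAL, -1.23 in GC-BuOE, -2.09 in FLT-SAL and -1.70 in FLT-BuOE, without passing the test of a difference between groups. In CA, Wfs1 read 70.8, 82.0 and 59.3 in the 3 GC-SAL mice, 75.8, 82.7 and 76.8 in GC-BuOE, 122, 133 and 119 in FLT-SAL and 70.4, 108 and 101 in FLT-BuOE. All CA values of the FLT-SAL mice were above those of the other groups, and the lowest of the 12 CA values was still above the highest DG value of 40.0.

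**Figure D3:**
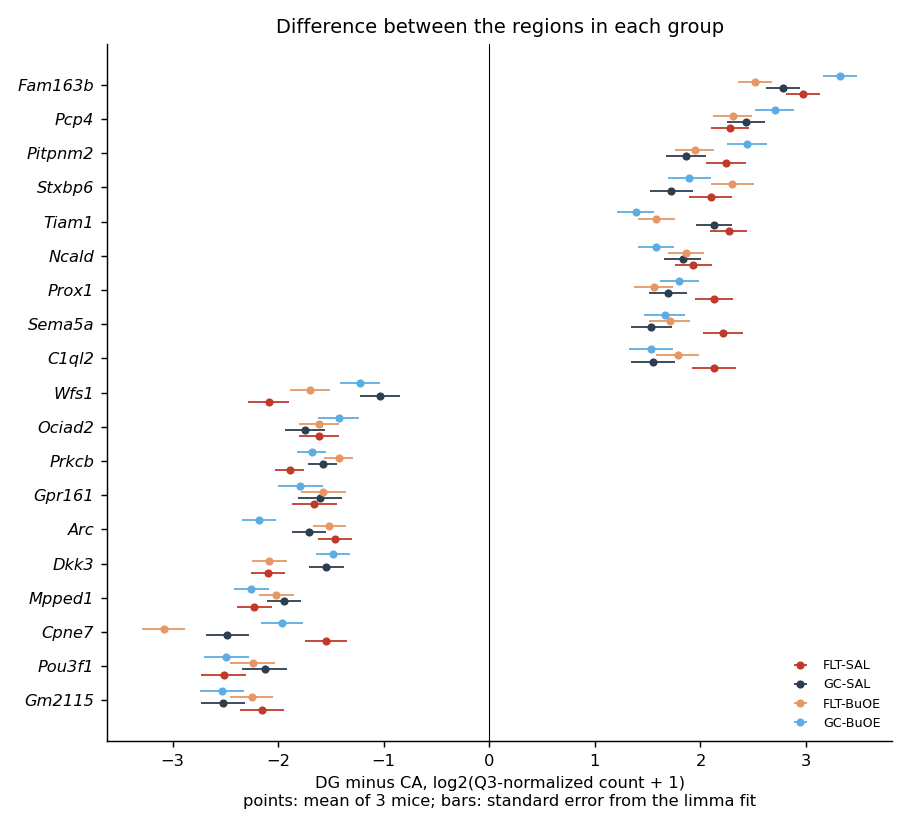
Difference DG minus CA on the log2(Q3-normalized count + 1) scale for leading genes of both regions and Wfs1 (vertical axis), with 1 point per group (mean of 3 mice) and bars for the standard error of the limma fit. Every point of a gene lies on the same side of 0, and Cpne7 spreads most, from -1.54 in FLT-SAL to -3.08 in FLT-BuOE.

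Whether the regional difference itself differed between groups was asked with an F-test over the 4 groups. It called 2 of 15782 genes at an adjusted p below 0.05 (0.0127%, limma), Cotl1 and Cpne7, and 807 genes at an unadjusted p below 0.05 (5.11%). edgeR called 19 genes and DESeq2 called 0. The single contrast of FLT-BuOE against FLT-SAL called 1 gene, Cpne7 (0.00634%, with 656 genes or 4.16% at an unadjusted p below 0.05), 7 genes in edgeR and 0 in DESeq2. The contrast of BuOE with saline on the ground called 0 genes in limma (867 genes or 5.49% unadjusted). The flight contrast called 0 genes with saline (668 genes or 4.23% unadjusted) and 0 with BuOE (1057 genes or 6.7% unadjusted). These 3 contrasts gave 5 genes each in edgeR and 0 in DESeq2.

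Cpne7 (chr8:123117374-123135182, GRCm38) varied on the CA side. In CA it read 143, 147 and 322 in the GC-SAL mice, 103, 85.4 and 173 in GC-BuOE, 56.5, 84.2 and 98.5 in FLT-SAL and 254, 216 and 256 in FLT-BuOE. In DG the 12 values ran from 16.7 to 40.0, and those of the groups overlapped. The DG minus CA difference was -2.48 in GC-SAL, -1.97 in GC-BuOE, -1.54 in FLT-SAL and -3.08 in FLT-BuOE (F-test, limma adjusted p = 0.0421), and FLT-BuOE differed from FLT-SAL by -1.54 (SE 0.28, limma adjusted p = 0.0122). Cotl1, which binds actin filaments, changed its order between flight and ground groups. In DG it read 105, 131 and 124 in GC-SAL, 100.1, 116 and 147 in GC-BuOE, 112, 91.0 and 86.5 in FLT-SAL and 95.1, 82.5 and 80.0 in FLT-BuOE. In CA it read 70.8, 66.7 and 90.4 in GC-SAL, 63.2, 81.4 and 84.4 in GC-BuOE, 102, 132 and 117 in FLT-SAL and 92.5, 104 and 99.2 in FLT-BuOE. The difference was 0.66 in GC-SAL and 0.65 in GC-BuOE, beside -0.28 in FLT-SAL and -0.20 in FLT-BuOE (F-test, limma adjusted p = 0.0336), and all 6 ground mice had a positive difference while 4 of the 6 flight mice had a negative one. edgeR also called both genes (F-test, adjusted p of 0.000298 for Cotl1 and 0.00188 for Cpne7). Neither call stood in DESeq2 or without the pooled spread (adjusted p of 0.826 for Cotl1 and 0.933 for Cpne7 without it). Both were also lost in limma without the replicate block (0.128 and 0.381) and under scaling to the negative probe (0.281 and 0.07). Leaving out single mice moved the limma adjusted p from 0.0125 to 0.478 for Cotl1 and from 0.00954 to 0.48 for Cpne7 over all such fits. The call of Cotl1 was lost without FLT-SAL replicate 2 or 3, GC-SAL replicate 2, FLT-BuOE replicate 2 or 3 or GC-BuOE replicate 1, and that of Cpne7 without FLT-SAL replicate 1, 2 or 3, FLT-BuOE replicate 1 or 3 or GC-BuOE replicate 1. Since each group was 1 slide, group and slide cannot be told apart for these genes.

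**Figure D4:**
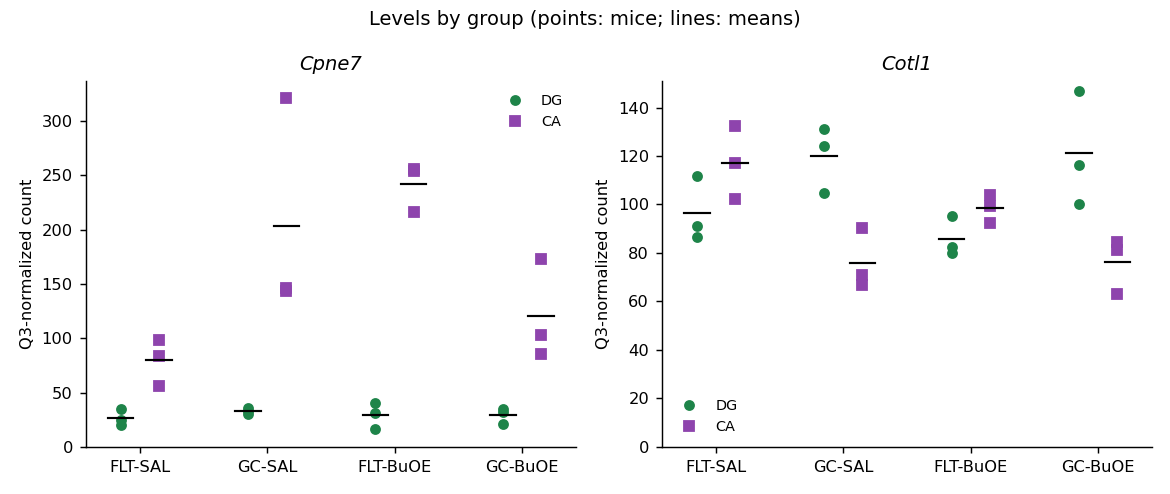
Q3-normalized counts (vertical axes, from 0) of Cpne7 and Cotl1 in the DG (green circles) and CA (purple squares) AOIs of the 3 mice of each group, with lines for the means. Cpne7 in CA runs from 56.5 in an FLT-SAL mouse to 322 in a GC-SAL mouse while DG stays at or under 40.0, and for Cotl1 the mean of DG lies above that of CA in both ground groups and below it in both flight groups.

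Gene lists of cell types and functions were read by counts and medians. The lists were chosen with earlier results of these data known and hold some of the leading genes above. Their counts are therefore a description and not independent evidence. Of 20 markers of dentate granule cells, 13 were called higher in DG and 0 higher in CA, beside 2.41% and 1.69% of all genes, and their median difference was 1.22 against -0.07 for all genes. Besides the genes above, Ahcyl2 (1.64), the factor Glis3 (1.48), Plk5 (1.57) and the calcium-stimulated adenylyl cyclase Adcy1 (0.88) were higher in DG, as were the factor Rfx3 (3.04-fold) and the synaptic protein C1ql3 (2.83-fold), and all 6 held in all 4 groups. The 7 not called were Calb1 (0.54), Npnt (0.42), Lct (0.29), Ppp1r1a (0.19), Gabrd (0.06), Pdyn (0.02) and Tdo2 (-0.08). Calbindin, the product of Calb1, and dynorphin, the product of Pdyn, are classical granule cell products, and Calb1 fell just short of the fold with 33.1, 48.4 and 53.8 in DG and 23.5, 30.3 and 44.2 in CA, higher in DG in 11 of 12 mice. The summed level of the 20 markers was 1420 to 2322 in DG and 666 to 836 in CA, without overlap.

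Of 17 markers of CA1 pyramidal cells, 12 were called higher in CA and 1 higher in DG, beside 1.69% and 2.41% of all genes, with a median of -0.90. Neurod6 (-1.53), Pex5l (-1.31) and Man1a (-0.90) were called beside the leading genes, as was Fibcd1 (2.84-fold higher in CA), and all 4 of these genes held in every group. The exception was the zinc finger factor Zbtb20, which specifies CA1 in development and was 0.66 higher in DG (12 of 12 mice), with 117, 155 and 171 in DG and 63.7, 97.8 and 118 in CA. The summed level of the list was 629 to 729 in DG and 1125 to 1375 in CA, without overlap. Under scaling to the negative probe Itpr1 (-0.67) changed sign, and the other 11 CA calls did not.

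Few members of the other cell type lists were called, although some of their summed levels differed between the regions. Over all genes 2.41% were called higher in DG and 1.69% higher in CA, so 0 calls in a list this short is near that share. Among 14 markers of CA3 and CA2 pyramidal cells, 2 were higher in DG, Grik4 (0.76) and Pcp4 (2.43), and 0 were higher in CA, while 1 of 6 markers of mossy cells and the hilus, Ociad2, was higher in CA. Pcp4 is used as a CA2 marker but is also known from granule cells. Of 12 interneuron markers, the GABA-synthesizing enzyme Gad1 (0.68) and the fast potassium channel Kcnc1 (0.72) were higher in DG, while Gad2 (-0.01), the GABA transporter Slc32a1 (0.09), Sst (-0.17) and Pvalb (-0.29) were not called. None of 9 markers of the neurogenic zone was called in limma, edgeR or DESeq2, with Dcx at -0.31 and Sox2 at -0.12. Without the fold threshold, 2 had an unadjusted p and 1 an adjusted p below 0.05 in limma. Of the 9, 8 were above background in DG only. Of 18 astrocyte, 13 oligodendrocyte, 12 microglial, 10 vessel wall, 4 choroid plexus and ependymal and 10 cortical or thalamic markers, 0 were called in any of the 3 tests, and 3, 2, 3, 4, 1 and 5 had an unadjusted p below 0.05 in limma. Without the fold threshold, 2 vessel wall and 1 choroid plexus or ependymal marker had an adjusted p below 0.05 in limma, all higher in CA. So did 1 cortical or thalamic marker higher in DG and 3 higher in CA, and 0 astrocyte, oligodendrocyte or microglial markers. Gfap read 40.0, 48.8 and 67.6 in DG and 38.9, 54.4 and 88.7 in CA, and Mbp read 67.6, 84.1 and 111 in DG and 71.2, 82.0 and 101 in CA, so both overlapped. The summed astrocyte level was 994 to 1350 in DG and 918 to 1455 in CA, the oligodendrocyte level 594 to 953 and 667 to 934, and the microglial level 250.1 to 337 and 311 to 397. The summed level of the mossy cell and hilus list, which holds Ociad2, was 113 to 175 in DG and 183 to 227 in CA, without overlap. That of the CA3 and CA2 list, which holds Pcp4, was 520.3 to 621 in DG and 348 to 525 in CA, and that of the vessel wall 205 to 272 and 244 to 289. All 10 vessel wall markers and 11 of 12 microglial markers read lower in DG, with medians of -0.20 and -0.19 beside -0.07 over all genes. However, 7 of the vessel wall and 7 of the microglial markers were above background in DG only. Under scaling to the negative probe the 2 medians were 0.50 and 0.52, beside 0.64 over all genes. No marker of these lists was at 0 in all 24 DG and CA AOIs, and their part in the differences was not tested.

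**Figure D5:**
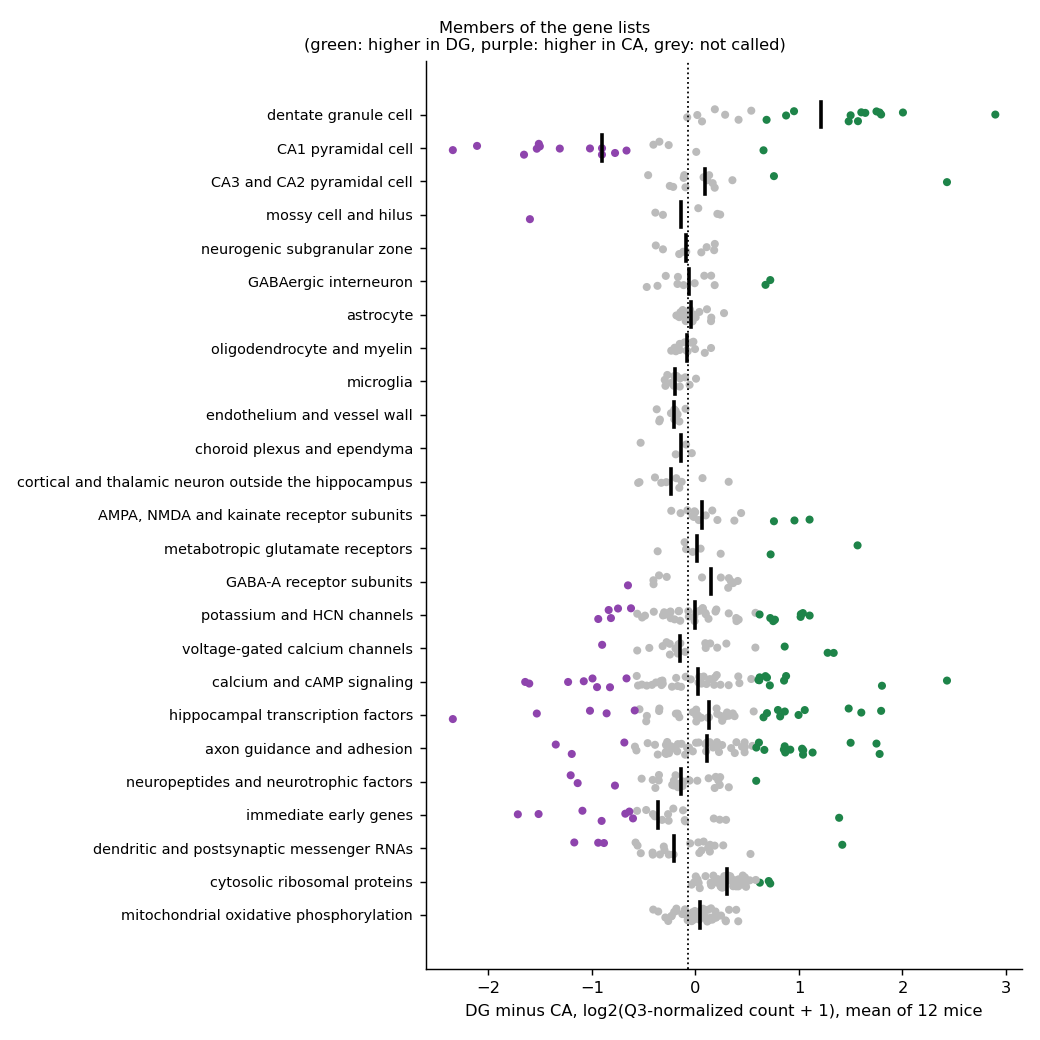
Difference DG minus CA (horizontal axis, log2 scale, mean of 12 mice) of every measured member of the 25 gene lists, with green and purple points for genes called higher in DG and in CA, grey points for genes not called, black bars for the median of a list and a dotted line for the median of all genes (-0.07). The granule cell list (median 1.22) and the CA1 list (median -0.90) lie furthest from the dotted line.

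Receptors for glutamate were among the genes higher in DG. Of 16 ionotropic subunits, 3 were called higher in DG and 0 in CA, beside 2.41% and 1.69% of all genes. All 3 were kainate receptor subunits, which act on both sides of mossy fiber synapses. Grik2 had 85.6, 102 and 125 in DG and 41.9, 47.3 and 54.4 in CA, without overlap (log2 1.10, SE 0.08). Grik3 (0.96) and Grik4 (0.76) were at background in CA, and the AMPA subunits Gria1 (0.03) and Gria2 (0.44) and the NMDA subunits Grin2a (-0.01) and Grin2b (-0.02) were not called. Of 8 metabotropic receptors, 2 were higher in DG. Grm2, an inhibitory autoreceptor of mossy fiber terminals, had 51.1, 64.3 and 86.3 in DG and 14.8, 21.7 and 29.5 in CA (log2 1.57, SE 0.11), where it was at background. Of 12 subunits of the GABA-A receptor, 0 were higher in DG and 1 was higher in CA. Limma gave an unadjusted p below 0.05 with a higher DG level for 6 of these 12 and with a higher CA level for 4. Without the fold threshold, the adjusted p was below 0.05 for 5 with a higher DG level and 4 with a higher CA level. On the DG side edgeR and DESeq2 also called 0.

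Ion channels divided between the regions. Of 45 potassium and HCN channel genes, 8 were higher in DG and 5 in CA, beside 2.41% and 1.69% of all genes. The DG set included the fast delayed rectifier Kcnc1 (0.72), the A-type channels Kcnc4 (1.02) and Kcnd3 (1.10), the inward rectifiers Kcnj4 (1.02), Kcnj6 (0.62) and Kcnj9 (0.77), and the two-pore channel Kcnk1 (0.75). Kcnc2, of the same Kv3 family as Kcnc1 and Kcnc4, was higher in CA (-0.82), together with the auxiliary subunit Kcnab1 (-0.94), the calcium-activated channel Kcnn2 (-0.84), Kcnh7 (-0.75) and the M-channel subunit Kcnq3 (-0.62), of which Kcnq3 changed sign under scaling to the negative probe. Of 21 genes of voltage-gated calcium channels, 3 were higher in DG and 1 in CA. Cacna1c, an L-type channel, had 85.0, 103 and 113 in DG and 37.3, 40.0 and 47.0 in CA (log2 1.28, SE 0.08), and the second L-type channel of neurons, Cacna1d, differed by 0.86. The T-type channels went opposite ways, with Cacna1h at 66.7, 117 and 201 in DG and 27.4, 48.1 and 58.5 in CA (log2 1.34, SE 0.08) and Cacna1i at 20.0, 31.9 and 42.8 in DG and 51.9, 60.9 and 75.9 in CA (log2 -0.90, SE 0.10). All 4 held in the 4 groups and did not overlap.

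Calcium and cAMP signaling held calls on both sides, 10 of 49 genes higher in DG and 8 higher in CA, beside 2.41% and 1.69% of all genes. Members of the same family were split. The ryanodine receptor Ryr2, a calcium release channel, had 106, 134 and 155 in DG and 43.1, 74.0 and 100.6 in CA (log2 0.86, SE 0.08), while Ryr3 had 47.2, 60.0 and 70.0 in DG and 107, 147 and 172 in CA (log2 -1.23, SE 0.07). Among calcium sensors Ncald (1.80) and hippocalcin, Hpca (-0.95), lay on opposite sides, as did the protein kinase C forms Prkce (0.62) and Prkcb, and the phosphodiesterases Pde1b (0.72) and Pde1a (-0.99). Camk2b (0.69) and Camk2g (0.68) were higher in DG while Camk2a, the alpha form, was not called (0.06). Adcy1, Ncdn (0.62), Prkacb (0.61) and Pcp4 completed the DG set, and Itpka (-1.08), the calcium pump Atp2b1 (-0.83) and Itpr1 (-0.67) were also in the CA set.

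Of 43 hippocampal transcription factors, 10 were higher in DG and 5 in CA, beside 2.41% and 1.69% of all genes. The NeuroD factors divided, with Neurod2 at 128, 176 and 257 in DG and 55.2, 88.1 and 123 in CA (log2 1.00, SE 0.07) and Neurod6 at 19.0, 30.0 and 53.4 in DG and 62.6, 97.2 and 126 in CA (log2 -1.53, SE 0.10), neither with overlap. The nuclear factor I genes Nfib (1.06) and Nfia (0.86), which act in neuronal and glial differentiation, were higher in DG, as were Bhlhe22 (0.82), Mef2c (0.80) and Emx1 (0.69). The POU factors Pou3f1 and Pou3f3 (-0.86) were higher in CA, and Meis2 (-0.59) was called there too but held in 0 groups on its own and changed sign under scaling to the negative probe.

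Genes of axon guidance and adhesion were called more often on the DG side, 14 of 57 against 3 of 57, beside 2.41% and 1.69% of all genes. Their median was 0.12, against -0.07 for all genes. Ligand and receptor families were again split. Among plexins, the receptors of semaphorins, Plxna4 was higher in DG (1.04) and Plxna1 higher in CA, with 14.5, 21.4 and 29.0 in DG and 34.3, 56.3 and 74.9 in CA (log2 -1.35, SE 0.11). Among Eph receptors Epha7 was higher in DG (0.67), whereas Epha6 had 67.2, 84.6 and 105 in DG and 158, 187 and 233 in CA (log2 -1.19, SE 0.07). Sema5a and Sema3e (-0.69) lay on opposite sides, with a change of sign of Sema3e under scaling to the negative probe. The synaptic organizers C1ql2, C1ql3, Lrrtm4 (1.13), Nptx1 (1.03), Ntng2 (0.85), Ntng1 (0.61) and Nptxr (0.59) were higher in DG, as were the repulsive ligand Slit1 (0.92), Robo3 (0.86) and the cell adhesion genes Pcdh8 (1.04) and Cdh9 (0.87). Nptx1, a neuronal pentraxin that gathers AMPA receptors, had 380.2, 458 and 511 in DG and 180.1, 218 and 298 in CA.

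Of 22 immediate early genes, 7 were called higher in CA, 1 higher in DG and 14 were not called, with a median of -0.36 beside -0.07 over all genes. Over all genes 1.69% were called higher in CA and 2.41% higher in DG. Egr1 had 23.3, 33.7 and 47.5 in DG and 69.7, 103 and 140.1 in CA (log2 -1.52, SE 0.09), without overlap, and with Arc and Nr4a1 (-1.09) it held in all 4 groups. Homer1 (-0.91), Junb (-0.68), Npas4 (-0.64) and Egr4 (-0.60) held in 1 to 3 groups, and the last 3 of these changed sign under scaling to the negative probe. Jun ran the other way, with 52.4, 87.6 and 102 in DG and 17.7, 29.2 and 59.0 in CA (log2 1.39, SE 0.10, 12 of 12 mice higher in DG). Fos was not called (-0.26) and read 1.13 times the negative probe in CA, at background. Of 28 neuropeptide and growth factor genes, 3 were higher in CA and 1 in DG. Cck, the cholecystokinin gene, had 32.2, 45.6 and 58.9 in DG and 68.2, 101 and 149 in CA (log2 -1.21, SE 0.09), and Igfbp4 (-1.14) and Vgf (-0.78) followed, against Igfbp5 (0.59) on the DG side.

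Messenger RNAs of dendrites and the postsynapse gave 3 of 25 higher in CA, Homer2 (-1.17), Shank1 (-0.94) and dendrin, Ddn (-0.88), and 1 higher in DG, Cplx2 (1.42), a presynaptic complexin. Among all genes 1.69% were called higher in CA and 2.41% higher in DG. Cplx2 had 217, 307 and 403 in DG and 83.1, 111 and 141 in CA, and Homer2 had 32.2, 40.9 and 48.3 in DG and 73.1, 96.7 and 115 in CA. The list was mixed otherwise, with a median of -0.21, and Camk2a (0.06) and Map2 (0.12) were not called. Of 49 cytosolic ribosomal protein genes, 3 were called higher in DG, Rps2 (0.72), Rpl15 (0.71) and Rpl10 (0.62), and 0 higher in CA, where the unadjusted p gave 0 as well and edgeR and DESeq2 called 0. On the DG side edgeR and DESeq2 called 4 each, and without the fold threshold 42 of the 49 had an unadjusted p and 40 an adjusted p below 0.05 in limma. Their median was 0.31 and 47 of 49 had a positive difference, with 21 higher in DG in 12 of 12 mice, so the list moved by less than the fold of a call. Its summed level was 7220 to 8610 in DG and 5923 to 6665 in CA, without overlap. Of 51 genes of oxidative phosphorylation, limma, edgeR and DESeq2 called 0 (18 at an unadjusted p below 0.05), the median was 0.04, and the summed levels of 3267 to 3879 in DG and 3109 to 3907 in CA overlapped. Without the fold threshold, 7 of these genes had an adjusted p below 0.05 in limma with a higher DG level and 3 with a higher CA level.

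The calls end where the 1.5-fold threshold lies, not at a gap in the values. Just inside on the DG side were Gm10256, Igfbp5 and Nptxr at 0.59 each, and just outside were Gm52481, Gm20765 and Ablim3 at 0.58 each. On the CA side Arhgap30, Bag5 and Nfkbiz at -0.59 were inside and Plxnd1, Rab8b and Tmem151b at -0.58 were outside. Pik3r4, named after its values were seen, shows how 1 AOI can make a call. It had 13.8, 20.6 and 3437 Q3-normalized counts (lowest, median and highest) in DG and 2.11, 15.9 and 22.2 in CA and was called higher in DG (log2 1.02, SE 0.27, limma adjusted p = 0.00351) with 8 of 12 mice higher in DG. Without GC-SAL replicate 2, the next highest DG value was 27.8 and the difference was 0.37 (SE 0.19, limma adjusted p = 0.172).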

How the data were processed

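Sections were hybridized with the Mouse Whole Transcriptome Atlas probes, and the tags released from each AOI were sequenced. Reads were trimmed, stitched, aligned to the tags and stripped of duplicates by the authors in the GeoMx NGS Pipeline (version 2.3.4, per the submitters' processing notes), who deposited the count of each of 20175 probes per AOI. No genome build enters that step. In the GeoMx DSP Control Center (3.0.0.111) the authors scaled each AOI to the upper quartile, and the deposited signal is this Q3-normalized count for 15782 genes and a negative-control row, 1 table per region. Their own fold changes and p-values for comparisons within regions were not used.

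The DG and CA tables were joined by gene, without the negative-control row. Same-numbered DG and CA AOIs of a group lay at most 2617 slide coordinate units apart and others at least 12963, so the pairs came from the same section and mouse. Their deviations from the group means correlated at -0.03 to 0.04. limma (3.58.1, R 4.3.3) was fitted to log2(Q3-normalized count + 1) over the 24 AOIs with the mouse as a fixed block and 1 DG minus CA term per group (8 residual degrees of freedom, empirical Bayes with a mean-variance trend, 62.19 prior degrees of freedom). The main contrast was the mean of the 4 group terms, with Benjamini-Hochberg adjustment over all genes. The study itself compared groups within regions, and its thresholds were kept. Dividing by the step between values gave whole counts for 99.98% of values within 0.02 of a count, and 15777 genes matched exactly 1 probe. edgeR (4.0.16, quasi-likelihood, TMM) and DESeq2 (1.42.0) were run on these counts as alternatives. The fits were first run on simulated data, and since the outcome is not reported here, this run is not offered as support for the calls. Nothing says whether mice shared cages. The p-values concern these 12 mice only, and those of limma rest mainly on a spread pooled over genes (62.19 prior against 8 residual degrees of freedom). Each SE in the text is that of the limma fit and rests on the same pooled spread. It is not the spread of the 12 paired differences. Deduplicated counts set the precision, with 322629 to 1372780 per AOI.

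Named genes were Prox1, Wfs1, the 10 called genes with the largest difference in each direction among those with 1 sign in 12 mice and above background in the higher region, list members, genes past a test between groups, and 3 genes on each side of the fold threshold. A few genes that meet this rule are not reported here. The members and lists were chosen with earlier results of these data known. Genes were matched by symbol to GENCODE (GRCm38) for coordinates.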

Additional observations from a re-analysis of the deposited data

Results flagged for a closer look

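For 2 genes the difference between DG and CA itself differed between the 4 groups. Cotl1 had an adjusted p of 0.03359 and Cpne7 one of 0.04215 in the limma F-test over the group terms, and Cpne7 also differed between FLT-BuOE and FLT-SAL (limma adjusted p = 0.01222), where its difference was -3.08 against -1.54. Cpne7 was higher in CA in 12 of 12 mice, and Cotl1 was higher in DG in 8 of 12. At this threshold 2 of 15782 genes is a small yield. edgeR called both genes and DESeq2 called neither. Each group was 1 slide, so group and slide cannot be told apart. Groups of 3 mice were too small to test a single mouse as an outlier.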

How the results depend on the processing

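Each of the 20 leading genes and Wfs1 kept its sign and its call under the 23 alternatives, while their sizes moved with the treatment of the negative probe. The mean difference of Cotl1, 0.21 (limma adjusted p = 0.0382) and under the fold threshold, reached 0.94 under scaling to the negative probe, and its adjusted p rose above 0.05 in other fits (limma, 0.0556 without the replicate block and 0.155 without the mean-variance trend; DESeq2, 0.092). Main counts were 380 DG and 267 CA genes, 216 and 92 of them in all 4 groups, and 2 genes in the F-test. A pseudocount of 10 gave 141 CA genes and an F-test count of 5, and a pseudocount of 0.1 an F-test count of 1. Subtracting the negative probe gave 7027 DG and 165 CA genes, 327 and 58 in all 4 groups and 0 in the F-test. Scaling to it gave 9448 and 24, 4380 and 16, and 0. Both change the background that differs between the regions. DESeq2 gave 171 CA genes, 51 of them in all 4 groups, and 0 in the F-test, and edgeR 19 in the F-test. Fits without the mean-variance trend gave 96 and 51 in all 4 groups and 0 in the F-test. Of 2 alternatives chosen after seeing the data, each gene's own spread gave 118 and 48 in all 4 groups and 0 in the F-test, and centring the negative-probe scaling on the median gene 49 CA genes in all 4 groups and 0 in the F-test. The cause of these shifts was not tested. The fit without the replicate block called 380 and 267 genes, 198 and 87 of them in all 4 groups, and 0 in the F-test, and 8 of 12 pairs correlated best with their own number. Leaving out 1 mouse gave 368 to 395 DG genes, 273 to 308 CA genes, 175 to 208 and 72 to 85 in all 4 groups and 0 to 6 in the F-test. The F-test count was 0 without FLT-SAL replicate 2 or 3, FLT-BuOE replicate 3 or GC-BuOE replicate 1, 1 without FLT-SAL replicate 1 or GC-SAL replicate 2, 4 without GC-SAL replicate 1 or GC-BuOE replicate 2 and 6 without GC-BuOE replicate 3. Requiring 1.5 times the negative probe in a region left 380 and 256 calls. A median of 59.8% of genes in CA and 92.7% in DG reached 1.5 times the negative probe. This share was 92.8% in the DG AOI with the fewest deduplicated counts (416744) and 53.3% in the CA AOI with the most (948561), and the part of depth was not tested.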

Other observations

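The genes that set DG apart from CA had varied levels in the 2 cortical regions of the same mice, given here as medians of 12 AOIs and without a test. Pcp4 read 199.9 in FCT and 253 in CT, above its DG median of 166. Ncald read 122 and 94.5, beside a DG median of 117, and Fam163b 83.7 and 81.2, between DG and CA. Prox1 read 31.3 and 26.9, Sema5a 26.4 and 27.4, and C1ql2 24.6 and 25.0, all at or under their CA medians in Q3-normalized counts. However, the negative probe lay at 12.1 to 18.0 in FCT and 13.3 to 16.8 in CT, beside 16.1 to 20.9 in CA. In DG it lay at 9.24 to 13.5. The levels in this paragraph were not set against the negative probe, so their order between regions includes background. Among the CA genes, Mpped1 read 116 and 114, Dkk3 141 and 144 and Prkcb 194 and 205, beside CA medians of 142, 142 and 202, and Arc read 240.0 in FCT and 218 in CT, above its CA median of 159. Wfs1 read 28.6 and 33.3, Gm2115 17.0 and 20.2 and Gpr161 27.5 and 20.7, beside DG medians of 31.3, 17.1 and 20.1.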
